A study of Mus musculus with 20 samples.

Results

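The genes described here encode the proteins of the mitochondrial ribosome. They are all genes whose symbol in the platform annotation begins with Mrpl or Mrps followed by a digit and that have a probe set assigned to 1 gene, which gave 76 of the 18193 genes on the array, 47 named for the large subunit (Mrpl) and 29 for the small subunit (Mrps). Total RNA from frozen ventricles of the heart was measured on Affymetrix arrays, which read each transcript with sets of short probes near its 3′ end. The animals were males of the inbred strain C57BL/6J, 10 aged 25 to 28 months (old) and 10 aged 4 to 6 months (young), each on 1 array. They shared a barrier facility, and the labels name no treatment and no engineered allele. Expression is given as the deposited GCRMA value in log2 units, and every difference is old minus young on that scale.

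The mitochondrial ribosome translates the few messenger RNAs that mitochondrial DNA encodes, all of them for core subunits of the respiratory chain and ATP synthase. Its RNA comes from mitochondrial DNA, whereas all its proteins are encoded in the nucleus, made in the cytosol and imported. Some of them descend from bacterial ribosomal proteins and others have no bacterial counterpart. The small subunit binds the messenger RNA and reads the codons, and the large subunit joins the amino acids and passes the new chain to the inner membrane. The heart depends on this machinery for its oxidative metabolism, and human mutations in several of the genes cause cardiomyopathy.

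The ventricle label was set against marker genes. Myh6, Myl2, Tnni3 and Actc1, which encode proteins of the cardiac muscle sarcomere, had mean log2 values above 14 in both groups. Of the 9 cardiomyocyte markers Myh7, the slow myosin heavy chain, rose by 2.60 (adjusted p = 3.9e-06), with 9 old arrays above all young ones, and the other 8 were not called, Ckm being the lowest at −0.32. The summed level of the 9 cardiomyocyte markers was 17.94 to 18.17 in old and 18.03 to 18.21 in young arrays. Myl7, a myosin light chain of atrial muscle, was at 2.36 to 14.55 in old and 2.38 to 2.44 in young arrays, and it exceeded 10 in 7 old arrays. The other 3 old arrays are replicates 1, 2 and 7, at 2.36, 8.27 and 6.58, so replicates 2 and 7 still lay above all young arrays. The summed level of the 4 atrial muscle markers was 10.65 to 16.53 in old and 9.92 to 12.37 in young arrays. That of 7 macrophage markers was 11.49 to 12.69 in old and 10.97 to 11.54 in young, with 5 of 6 tested markers higher in old, and that of 6 fibroblast markers was 12.76 to 13.79 in old and 12.53 to 13.19 in young, with 2 of 6 higher. The 3 adipocyte markers on the array summed to 4.09 to 12.11 in old (median 5.68) and 4.07 to 4.19 in young. Adipoq had 9 old arrays above all young ones and 0 below, Cidec 3 above and 5 below, and Lep 0 above and 4 below. Of these 3 markers 0 exceeded a log2 value of 4 in at least 10 arrays. The part of these markers in the results was not tested beyond the fits given for atrial transcripts. The arrays also fell into 5 sets of 2 old and 2 young arrays each when their deviations from the group means were clustered. The labels name no batch for these sets. In tissue RNA, fewer cardiomyocytes and less of a transcript per cardiomyocyte cannot be told apart.

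Some genes of each subunit were lower in old hearts. In the limma fit of all 20 arrays over 9275 genes, 23 of the 76 genes passed at an adjusted p under 0.05 as lower in old and 0 as higher, where 7.49% of all genes tested were called lower and 11.2% higher. Of the 76 estimates 73 were below 0, against 48.7% of all genes. The median difference was −0.26, against 0.01 over all genes, and the standard errors lay between 0.07 and 0.22. All 76 genes passed the filter on low values, and the lowest value of any of them in any array was 6.01, so none lay at the floor of the scale. No gene had every old array below every young one, a pattern shown by 0.42% of all genes tested. The balance of calls over all genes depended on the scaling between arrays, with 695 lower and 1037 higher as deposited and 1059 lower and 809 higher after quantile normalization. The count for the mitochondrial ribosome was 26 lower and 0 higher after that normalization, against 11.4% and 8.72% of all genes. All 23 calls were lost without the 7 old arrays high in Myl7, and also with the atrial transcripts as a covariate.

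**Figure D1:**
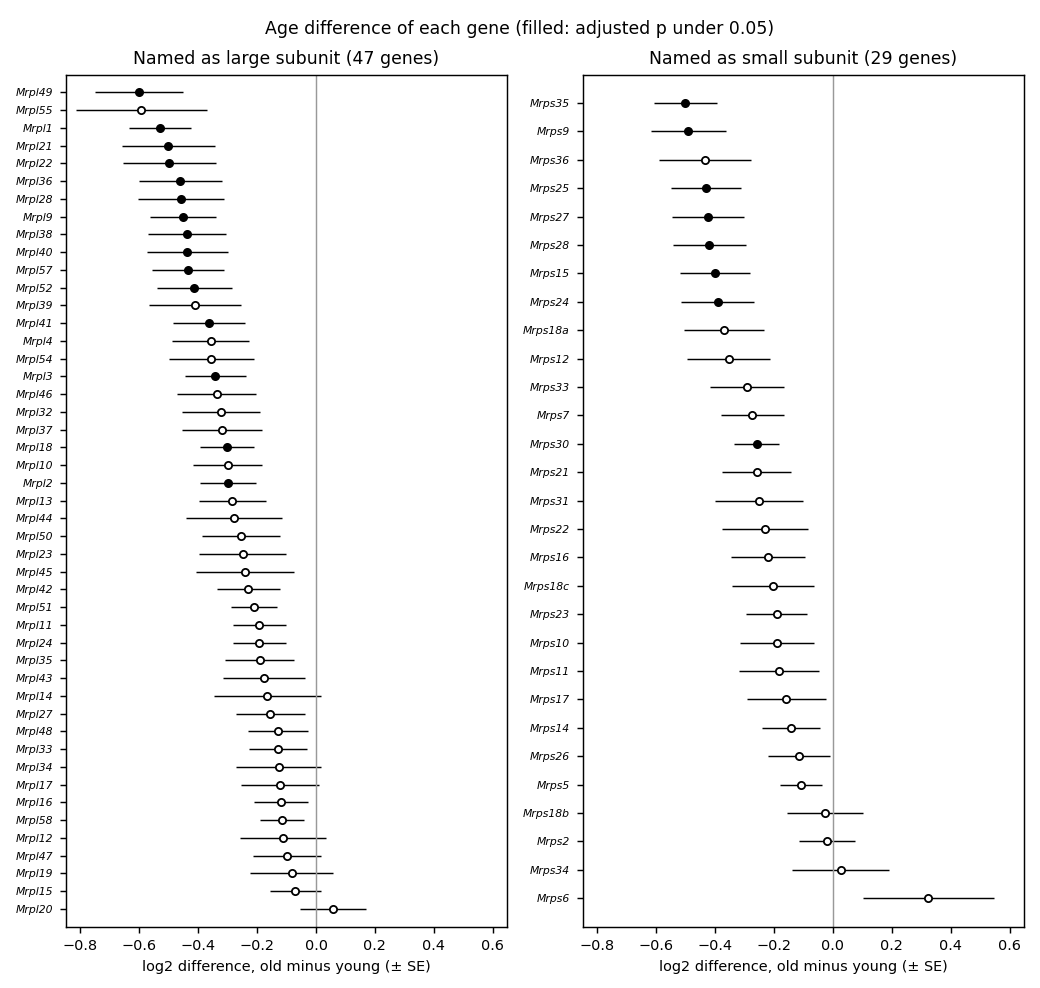
Log2 difference, old minus young, with its standard error for each of the 47 genes named for the large subunit and the 29 named for the small subunit, in order of size, 10 arrays per group. Filled points passed the limma test at an adjusted p under 0.05; all 23 filled points lie below 0, and 3 open points lie above it.

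Among genes of the large subunit, 15 of 47 fell and 0 rose, against 7.49% of all genes called lower and 11.2% higher. The median difference was −0.28. Mrpl1 encodes the protein of the mobile stalk through which used transfer RNAs leave. Its log2 value was 8.19 to 8.74 in old arrays (median 8.35) and 8.60 to 9.37 in young ones (median 8.87). The 2 groups overlapped only slightly, since 8 old arrays lay below all young ones and the 2 exceptions were old replicates 7 and 10. Mrpl1 fell by 0.53 ± 0.11 (SE, n = 10 per group; limma adjusted p = 0.00138). Its second passing probe set was at −0.09, and the mean of both gave −0.31 (adjusted p = 0.0203). Mrpl49, a protein with no bacterial counterpart, was at 7.42 to 8.62 in old (median 8.07) and 8.13 to 9.06 in young (median 8.56). It had the largest estimate of the family and fell by 0.60 ± 0.15 (SE; adjusted p = 0.00668), with 6 old arrays below all young ones and old replicate 10 within the young range.

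Mrpl9, the counterpart of a bacterial protein of the same number, fell by 0.45 ± 0.11 (SE; adjusted p = 0.00682), from a young median of 9.25 to an old median of 8.88. All 3 of its passing probe sets had estimates below 0, at −0.45, −0.46 and −0.52. Mrpl57 fell by 0.44 (adjusted p = 0.0153) and Mrpl38, a protein of the central protuberance that faces the small subunit, also by 0.44 (adjusted p = 0.0245). Mrpl3 lies near the catalytic centre, and its human counterpart is a cardiomyopathy gene. It was at 9.77 to 10.46 in old and 10.06 to 10.76 in young arrays and fell by 0.34 ± 0.10 (SE; adjusted p = 0.0231). Its 3 passing probe sets had estimates of −0.34, −0.51 and −0.43. The other large subunit genes that fell were Mrpl18, Mrpl36, Mrpl52, Mrpl40, Mrpl28, Mrpl21, Mrpl2, Mrpl22 and Mrpl41, with estimates from −0.30 to −0.50. For Mrpl52 the probe set used was at −0.41, while its other 2 passing probe sets were at −0.001 and −0.04, and their mean did not pass (−0.15, adjusted p = 0.490).

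A part of these calls rested on single arrays. Of the 23 calls 15 held in all 20 fits that left out 1 array, among them Mrpl1, Mrpl49, Mrpl9, Mrpl57, Mrpl3, Mrpl38, Mrpl18 and Mrpl36. Mrpl52 lost its call without old replicate 5 and Mrpl28 without old replicate 9. Mrpl40 lost it without old replicates 5, 6 or 8 or young 14, Mrpl2 without old 4 or 6 or young 14 or 17, and Mrpl22 without old 4, 5, 6, 8 or 9 or young 14 or 17. Mrpl21 lost it in 8 of the 20 fits (without old 4, 5, 6, 8 or 9 or young 14, 17 or 20) and Mrpl41 in 11 (the same arrays and young 11, 12 and 13). The highest adjusted p in any of these fits was 0.0769, for Mrpl41.

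Large subunit genes outside the calls mostly had negative estimates. Some of these were as large as those of called genes, such as Mrpl39 at −0.41 and Mrpl4 at −0.36. Mrpl55 was at −0.59 ± 0.22 (SE) with an adjusted p of 0.0653, the second lowest estimate of the family with the widest spread among old arrays of the large subunit. Mrpl51, read by a bright probe set, was at −0.21 ± 0.08 (SE; adjusted p = 0.0647). Mrpl44, which has an RNase III fold, sits at the exit of the new chain and is a human cardiomyopathy gene, was at −0.28 (adjusted p = 0.246), with all 4 of its passing probe sets between −0.28 and −0.39. Mrpl12, a stalk protein that has also been described as a partner of the mitochondrial RNA polymerase, was at −0.11 (adjusted p = 0.644). Mrpl58, a release factor relative that is built into the ribosome, was at −0.11 (adjusted p = 0.309). Mrpl20 was the single large subunit gene above 0, at 0.06 ± 0.11 (SE; adjusted p = 0.764), with old arrays at 8.99 to 9.57 and young ones at 8.69 to 9.55.

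By place in the large subunit, the central protuberance had 3 of 6 genes lower (Mrpl38, Mrpl40 and Mrpl18) and a median of −0.32. The rim of the exit of the new chain had 1 of 8 lower (Mrpl22) and a median of −0.25, and the stalk that recruits translation factors, with Mrpl10, Mrpl11 and Mrpl12, had 0 of 3 and a median of −0.19. All 17 of these genes had estimates below 0. Of all genes tested 7.49% were called lower, and 1 of 8 and 0 of 3 are too few to set apart from that share. The difference between the places was not tested.

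The sequences just before the start of transcription are shown because most of the genes had estimates below 0 and because some start next to another gene. RefSeq promoter windows on GRCm38.p6, from 250 bases before to 50 after a start, were found for 67 of the 76 genes. NRF1, a regulator of nuclear genes for mitochondria, binds sites like GCGCA, any base, then GCGC, and the ETS family, to which GABPA belongs, binds sites around CCGGAAG. On either strand the NRF1 letters occurred in 12 of the 67 genes (17.9%), against 12.3% of the tested genes with a window. The share was 5.19% of all genes with a window. The ETS letters occurred in 25 genes (37.3%), against 21.1% of the tested genes and 9.93% of all genes with a window. Of the 20 genes with a window that fell, 3 held the NRF1 letters and 7 the ETS letters, and of the 47 others 9 and 18. A match is a description of the sequence and not evidence of binding. The 150 bases before the start are given for the genes that fell, had an NRF1 or ETS match there and had no divergent neighbour. They are also given for Mrpl45, with 3 NRF1 matches in its window the most of the family. Capitals mark the NRF1 and ETS matches.
Mrpl9 (chr3:94443186-94443335, + strand): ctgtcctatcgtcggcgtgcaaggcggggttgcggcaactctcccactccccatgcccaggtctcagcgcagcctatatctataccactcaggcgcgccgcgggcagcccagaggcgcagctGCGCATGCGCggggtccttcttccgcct
Mrpl3 (chr9:105053118-105053267, + strand): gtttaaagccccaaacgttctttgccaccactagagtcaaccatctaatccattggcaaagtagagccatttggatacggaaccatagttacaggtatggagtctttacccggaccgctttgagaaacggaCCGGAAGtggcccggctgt
Mrpl22 (chr11:58171514-58171663, + strand): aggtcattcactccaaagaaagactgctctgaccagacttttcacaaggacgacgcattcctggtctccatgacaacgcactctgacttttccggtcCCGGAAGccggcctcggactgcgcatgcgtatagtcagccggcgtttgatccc
Mrpl52 (chr14:54426759-54426908, + strand): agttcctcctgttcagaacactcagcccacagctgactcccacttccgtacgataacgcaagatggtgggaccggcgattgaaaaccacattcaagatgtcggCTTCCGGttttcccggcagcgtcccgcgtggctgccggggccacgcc
Mrpl45 (chr11:97315566-97315715, + strand): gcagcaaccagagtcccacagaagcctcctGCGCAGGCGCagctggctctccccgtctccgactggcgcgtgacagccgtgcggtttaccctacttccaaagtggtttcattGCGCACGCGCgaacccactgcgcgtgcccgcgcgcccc

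In 22 of the 67 genes (32.8%, against 18.4% of the tested genes) another gene started in the opposite direction within 500 bases upstream. Mrpl49, with the largest estimate of the family, starts 191 bases from Fau, which encodes a cytosolic small subunit ribosomal protein fused to a ubiquitin-like protein. The 2 genes moved in opposite directions. Fau was at 11.69 to 12.27 in old and 11.09 to 11.94 in young arrays and rose by 0.32 ± 0.11 (SE, n = 10 per group; limma adjusted p = 0.0411), with 8 old arrays above all young ones. Leaving out 1 array ended the Fau call in 11 of 20 fits (without old 1, 2, 3, 4, 5, 6 or 9 or young 12, 16, 18 or 19; adjusted p up to 0.0762), as did leaving out all 7 old arrays high in Myl7 (0.26, adjusted p = 0.50). Fau was chosen for mention after its value was seen. Mrpl46, a large subunit gene, and Mrps11, a small subunit gene, start 41 bases apart in opposite directions, and were at −0.34 (adjusted p = 0.0829) and −0.18 (adjusted p = 0.378). Mrps12 and Sars2, the mitochondrial seryl-tRNA synthetase gene, also form such a pair and were at −0.35 (adjusted p = 0.0821) and 0.003 (adjusted p = 0.992). Over the 13 neighbours that were tested and are not themselves mitochondrial ribosome genes, 2 were lower and 1 higher, counts too small to set apart from the 7.49% and 11.2% of all genes, with a median of −0.14. The bases between the starts of the first 2 pairs are given on the + strand, and hold neither the NRF1 nor the ETS letters.
Mrpl49 to Fau (chr19:6057756-6057946): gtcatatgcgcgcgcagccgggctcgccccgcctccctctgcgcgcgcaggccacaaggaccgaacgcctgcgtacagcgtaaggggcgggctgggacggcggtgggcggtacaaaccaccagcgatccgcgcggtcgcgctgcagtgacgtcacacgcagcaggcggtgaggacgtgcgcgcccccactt
Mrpl46 to Mrps11 (chr7:78783090-78783130): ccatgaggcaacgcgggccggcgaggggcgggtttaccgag

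Among genes named for the small subunit, 8 of 29 fell and 0 rose, against 7.49% of all genes called lower and 11.2% higher. The median difference was −0.25. Mrps35, a protein of the small subunit head with no bacterial counterpart, was at 8.92 to 9.87 in old arrays (median 9.37) and 9.71 to 10.11 in young ones (median 9.85). Of the old arrays 8 lay below all young ones, and the 2 that did not were replicates 1 and 7, which are among the 3 with Myl7 at most 10. Mrps35 fell by 0.50 ± 0.11 (SE, n = 10 per group; adjusted p = 0.00258). Mrps9, another head protein, was at 8.55 to 9.66 in old (median 9.01) and 9.20 to 9.81 in young (median 9.64) and fell by 0.49 ± 0.13 (SE; adjusted p = 0.00975). Its 3 passing probe sets had estimates of −0.49, −0.50 and −0.14.

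Mrps25, which has no bacterial counterpart, fell by 0.43 (adjusted p = 0.0138), Mrps27, an RNA-binding protein of the pentatricopeptide repeat family, by 0.42 (adjusted p = 0.0187), Mrps28 by 0.42 (adjusted p = 0.0199) and Mrps15 by 0.40 (adjusted p = 0.0224). These 4 held in all 20 fits that left out 1 array, as did Mrps35, Mrps9 and Mrps30. Mrps24, a head protein, fell by 0.39 (adjusted p = 0.0322), a call lost without old replicates 6 or 8 or young 14, 16 or 17. Of the head proteins 3 of 8 were lower, with a median of −0.28, and of those of the body 4 of 17, with a median of −0.20. Both counts are read against the 7.49% of all genes called lower.

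Some members carry the name of the small subunit and lie elsewhere. Structures of the mammalian mitochondrial ribosome place Mrps30 and Mrps18a in the large subunit, and Mrps36 is a part of the 2-oxoglutarate dehydrogenase complex. Mrps30 was at 7.92 to 8.50 in old and 8.39 to 8.80 in young arrays, with 8 old arrays below all young ones, and fell by 0.26 ± 0.08 (SE; adjusted p = 0.0228). Mrps18a was at −0.37 (adjusted p = 0.0608) and Mrps36 at −0.44 (adjusted p = 0.0545). With these moved or left out, 16 of 49 large subunit genes and 7 of 26 small subunit genes were lower, against 7.49% of all genes. The medians were −0.28 and −0.23.

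Small subunit genes that did not pass included those best known from other work. Mrps5, whose worm counterpart prolongs life when it is knocked down, was at 6.43 to 6.71 in old and 6.56 to 6.98 in young arrays, a difference of −0.11 ± 0.07 (SE; adjusted p = 0.300). The cardiomyopathy genes Mrps14 and Mrps22 were at −0.14 (adjusted p = 0.340) and −0.23 (adjusted p = 0.290). Mrps2 and Mrps18b had estimates of −0.02 and −0.03, and Mrps34 of 0.03 ± 0.16 (SE; adjusted p = 0.934). The sign of Mrps34 varied among the fits that left out 1 array, from −0.05 to 0.12.

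Mrps6 stood apart from the family. It was at 8.75 to 10.75 in old arrays (median 9.32) and 8.79 to 9.79 in young ones (median 9.16), a difference of 0.32 ± 0.22 (SE; adjusted p = 0.336), and its second passing probe set gave 0.35. The old values were split, with replicates 4, 6, 9 and 10 at 9.86, 10.20, 10.25 and 10.75, above all young arrays, and replicate 7 at 8.75, below them all. Those 4 old arrays are also the 4 with the highest atrial index, 0.707 to 1.0. The index averages the unlogged Myl7 and Sln signals, each divided by its highest array. Without the 7 old arrays with Myl7 above 10 Mrps6 was at −0.28 (adjusted p = 0.524), and with the index as a covariate at −0.38 (adjusted p = 0.283). The part of atrial transcripts in this value was not tested beyond these fits.

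**Figure D2:**
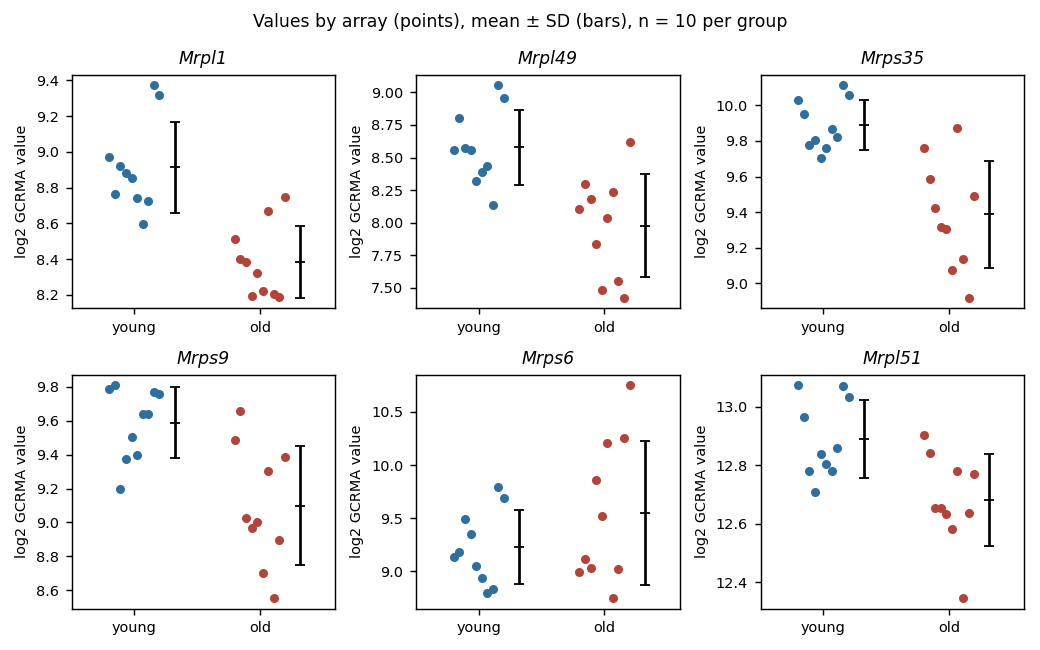
Log2 GCRMA values of 6 genes in each of the 10 young and 10 old arrays (points, ordered within a group by array set), with the group mean and SD beside them. Mrpl1 and Mrps35 have 8 old arrays below all young ones, and Mrps6 has 4 old arrays above all young ones.

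Both subunits had more genes called lower than the background, with 31.9% of the large and 27.6% of the small subunit genes read against the 7.49% of all genes. The mean log2 value over the 47 large subunit genes was 8.96 to 9.74 in old arrays (median 9.49) and 9.44 to 10.13 in young ones (median 9.70), and its group means differed by −0.28. Over the 29 small subunit genes it was 8.66 to 9.40 in old (median 9.10) and 9.04 to 9.73 in young (median 9.28), a difference of −0.24. For both subunits the groups overlapped, with 4 and 3 old arrays below all young ones. Within an array, the small subunit mean minus the large subunit mean was −0.44 to −0.28 in old and −0.44 to −0.35 in young arrays, so the 2 means moved by a similar amount from array to array. The gap between the group means of this quantity was 0.04, and 8 of 10 old arrays lay above the young median. The members were chosen with results known, so no test is attached to these means. The median of the large subunit was below that of the small one in each of the 32 alternative fits, by 0.02 to 0.07, fits that share most of their arrays. With the array sets fitted as a block, without a filter and with the filter at 6, both medians were identical to those of the main fit. Within single array sets the order of the medians varied. The small minus the large median was 0.04, 0.02 and 0.14 in sets 1, 2 and 4, and −0.02 and −0.03 in sets 3 and 5. The order of the means did not vary. In sets 1 to 5 the mean difference was −0.16, −0.25, −0.23, −0.23 and −0.56 for the large subunit. For the small subunit it was −0.14, −0.21, −0.18, −0.18 and −0.50.

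By origin of the protein, of the 45 proteins with a bacterial counterpart 13 were lower (median −0.22), and of the 30 without one 10 were lower (median −0.29). The 20 proteins of the large subunit without a counterpart, placed by structure, had 7 lower and all 20 estimates below 0 (median −0.33), and the 10 of the small subunit 3 lower and 9 below 0 (median −0.24). The brighter 38 genes had 12 lower and a median of −0.28, and the dimmer 38 had 11 lower and a median of −0.25. All these counts are read against the 7.49% of all genes called lower. None of these contrasts was tested.

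The mean level also varied between array sets. Among young arrays, the mean over all 76 genes was 9.29 and 9.36 in set 4 (young 18 and 19) and 9.90 and 9.97 in set 5 (young 14 and 17). Old replicate 10, in set 5, stood at 9.61, above 6 young arrays of other sets but below both young arrays of its own. In sets 1, 2, 3 and 5 both old arrays lay below both young ones. In set 4 old replicate 8 was at 8.85, the lowest of all 20 arrays, and old replicate 7 at 9.38 lay above both young arrays of its set. The mean difference over the 76 genes was −0.15, −0.23, −0.21, −0.21 and −0.54 in sets 1 to 5. It was −0.16 to −0.56 for the large and −0.14 to −0.50 for the small subunit.

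**Figure D3:**
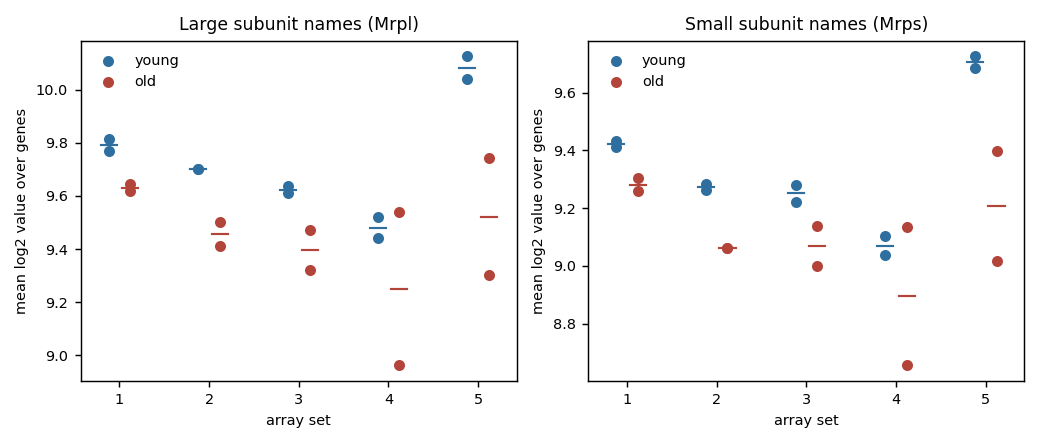
Mean log2 value over the 47 large subunit genes (left) and the 29 small subunit genes (right) in each array, by array set, with young arrays in blue, old arrays in red and a line at the mean of each pair. Both old arrays lie below both young ones in sets 1, 2, 3 and 5; in set 4 old replicate 7 lies above them.

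Gene by gene, 51 of the 76 genes had a lower mean in old in all 5 sets, against 18.6% of all genes tested. Of the 51, 32 were of the large and 19 of the small subunit. They included all 23 genes that fell, but those were called on these same 20 arrays, so this is not separate support. Old replicate 8 gave the lowest value of the 20 arrays for 55 genes and old replicate 9 for 12, while young replicates 14 and 17 gave the highest for 57. With the set as a block, 46 genes passed as lower and 0 as higher, 30 of the large and 16 of the small subunit, against 16.7% of all genes called lower in that fit. The 23 genes added included Mrpl4, Mrpl55, Mrpl39, Mrpl44, Mrpl51, Mrps12, Mrps18a and Mrps36. The sets were found on these values, so the p-values of that fit are somewhat too small.

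No call was left when the 7 old arrays with Myl7 above 10 were taken out, or when the atrial index was a covariate. The old arrays kept include replicates 2 and 7, with Myl7 at 8.27 and 6.58, so atrial transcripts were reduced and not absent. Without the 7 old arrays with Myl7 above 10, which leaves 3 old and 10 young arrays, 0 of the 76 genes passed in limma, against 0.679% of all genes called lower and 2.25% higher, with 11 lower at an unadjusted p under 0.05 and 51 estimates below 0. The medians were −0.14 for the large and −0.11 for the small subunit. The smallest adjusted p was 0.102, for Mrpl9 at −0.54. Mrpl1 was then at −0.39, Mrpl49 at −0.36 and Mrpl38 at −0.49, while Mrps35 was at −0.15, Mrps9 at −0.11 and Mrpl44 at 0.05. All 23 genes called with all arrays kept an estimate below 0, with a median of −0.22 in place of −0.44. They had been called in a fit that held these same 3 old and 10 young arrays, so their sign here is not separate support. The mean over the 76 genes was 9.38 to 9.50 in the 3 old arrays with Myl7 at most 10 and 8.85 to 9.61 in the other 7. With the atrial index as a covariate 0 genes passed in limma, against 0.927% of all genes called lower and 2.81% higher, 19 were lower at an unadjusted p under 0.05 and the medians were −0.23 and −0.20. With index and array sets together 0 passed in limma, against 1.89% lower and 4.36% higher, 18 were lower at an unadjusted p under 0.05, and the medians were −0.12 and −0.08. With the 3 remaining old arrays set against the 4 young arrays of their array sets 0 passed in limma, against 0.679% lower and 1.67% higher, 9 were lower at an unadjusted p under 0.05, and the medians were −0.10 and −0.05. The index was high in old arrays alone, so age and atrial transcripts are poorly separated in that fit.

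**Figure D4:**
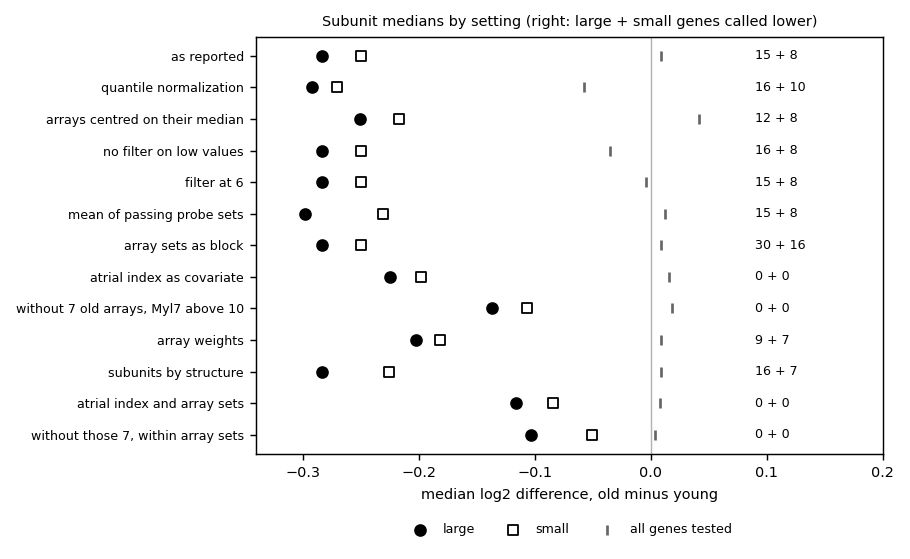
Median log2 difference of the large subunit genes (filled circles), the small subunit genes (open squares) and all genes tested (ticks) under each way of processing, with the number of large and small subunit genes called lower at the right. Both medians stay below 0 in all 13 settings shown. The counts are 0 in the 4 settings that use the atrial index or leave out the old arrays with Myl7 above 10.

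Genes of other proteins that mitochondrial translation needs were among those that fell, and their counts are read against the 7.49% of all genes called lower. Among ribosomal proteins with other names, Ptcd3, a pentatricopeptide repeat protein of the small subunit, was at 9.85 to 10.58 in old and 10.49 to 10.84 in young arrays and fell by 0.53 ± 0.10 (SE; adjusted p = 0.00074). Dap3, Chchd1 and Gadd45gip1 were at −0.18, −0.14 and −0.42 and did not pass. Of 25 tested assembly and RNA maturation factors 6 fell and 0 rose (median −0.24), namely Tfb1m, the methyltransferase of the small subunit RNA (−0.63, adjusted p = 0.00399), Rpusd4, a pseudouridine synthase (−0.61), the GTPases Mtg1 (−0.38) and Noa1 (−0.42), the RNA-binding protein Lrpprc (−0.35) and the methyltransferase Mrm2 (−0.27). Of 11 translation factors 2 fell and 0 rose (median −0.32). Gfm1, the elongation factor that moves the ribosome along the message, fell by 0.43 ± 0.09 (SE; adjusted p = 0.00164), with 9 old arrays below all young ones, and Tufm, which delivers transfer RNAs, fell by 0.47 ± 0.13 (SE; adjusted p = 0.0134). Of 15 tested mitochondrial tRNA synthetase and amidotransferase genes 8 fell and 0 rose (median −0.31), with Cars2 at −0.57, Gatb at −0.55, Yars2 at −0.55 and Lars2 at −0.53. Some of these calls lay near the filter threshold of 4, with means in old and young of 4.07 and 4.45 for Mars2 and 4.97 and 5.28 for Aars2. With the filter at 6, where 8.85% of all genes were called lower, 6 of 9 synthetase and amidotransferase genes were lower. After quantile normalization, where 11.4% of all genes were called lower, 12 assembly factors and 4 translation factors were lower. With the array sets as a block, where 16.7% were, these counts were 14 and 7, and 4 translation factors were lower without old replicate 10. Leaving out 1 array ended the call of Noa1 in 7 of 20 fits (old 5 or 6, young 11, 14, 16, 19 or 20), of Mrm2 in 8 (old 4, 5, 6, 7 or 9, young 11, 14 or 17) and of Mars2 in 4 (old 6, young 13, 16 or 19). For Iars2 it did so in 13 (old 2, 3, 4, 6, 8, 9 or 10, young 12, 13, 15, 16, 18 or 19). Without the 7 old arrays high in Myl7, 1 synthetase gene passed and 0 in the other 3 lists.

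Cytosolic ribosomal proteins, which build the ribosome of the rest of the cell, had mostly positive estimates. Of 44 tested, 9 were higher and 1 lower in old, against 11.2% and 7.49% of all genes, with a median of 0.16 and 39 estimates above 0. The count of 9 was 4 without old replicate 8 or young 12, 18 or 19, and 5 without old 5 or young 15 or 16. With the array sets as a block it was 24, against 19.4% of all genes called higher in that fit. Rpsa (0.37), Rps19 (0.32) and Rpl13a (0.28) were among those that rose, and the one that fell was Rpl3l, the form of Rpl3 found in striated muscle (−0.72, adjusted p = 0.00106). The median stayed above 0 after quantile normalization (0.15) and median centring (0.19), and was 0.10 with 0 calls in limma without the 7 old arrays. The difference between the 2 kinds of ribosome was not tested.

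**Figure D5:**
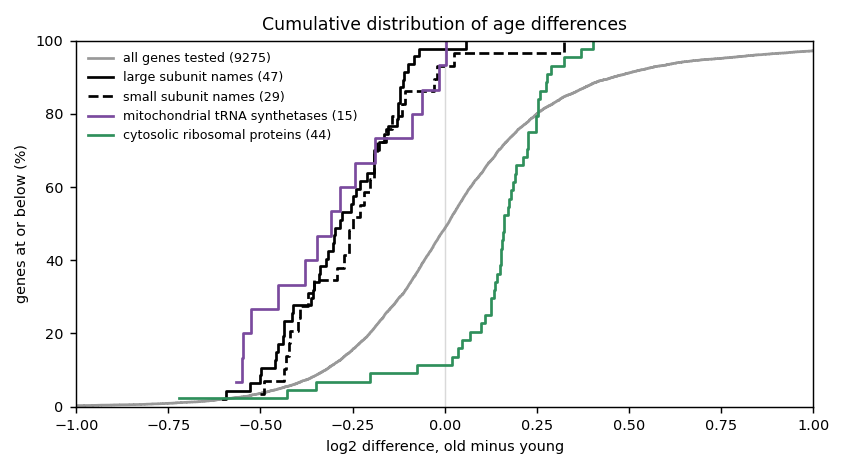
Cumulative share of genes at or below each log2 difference, old minus young, for the 47 large and 29 small subunit genes of the mitochondrial ribosome, 15 mitochondrial tRNA synthetase genes, 44 cytosolic ribosomal protein genes and all 9275 genes tested. The 2 curves of the mitochondrial ribosome run close together left of the curve of all genes, with medians of −0.28 and −0.25, and that of the cytosolic ribosome has its median at 0.16.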

How the data were processed

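The authors deposited 1 log2 value per probe set and array for 20 arrays. GCRMA is named in the submitters' processing notes; its version is not given in the sources used here, nor are its options or log base, and log2 was read from the range of the values (0.98 to 16.0). Probe sets with 1 gene in the platform annotation were used; 4 probe sets shared with another gene were left out, and Mrpl30 and Mrpl53 are read by such probe sets alone. A probe set passed with a log2 value above 4 in at least 10 of 20 arrays, and each gene took the brightest passing probe set by mean over all arrays. Old and young were compared with limma 3.58.1 (lmFit, eBayes; R 4.3.3; checked on simulated data) over 9275 genes with Benjamini-Hochberg adjustment. The members and gene lists were chosen with earlier results of these data known, so lists carry counts and medians without a test. Named genes were, per subunit, the 6 called with the smallest p and the largest fall, all estimates above 0, cardiomyopathy genes, Mrps5, Mrps30, Mrps18a, Mrps36 and those whose probe sets disagree in sign, and, in other lists, the called genes and the 2 with the smallest p; others were named after their values were seen. Array sets came from average linkage clustering of residual correlations (5 sets, the highest mean silhouette, 0.351). No array pair held identical values. Array number limits the precision. Promoter sequences are from RefSeq (GRCm38.p6).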

Additional observations from a re-analysis of the deposited data

Results flagged for a closer look

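In 7 cases 1 old array lay far from the other 9 of its group for a gene named in the text, by a gap that exceeds Dixon's limit; 112 gene or mean by group combinations were examined, and chance alone flags about 1 in 20. Old replicate 8 was the low array for Mrps18a (8.96, nearest other old array 9.59), Mrpl2 (9.30, nearest 9.67), Tufm (7.71, nearest 8.21), Gatb (5.57, nearest 6.19) and Cars2 (5.37, nearest 6.09). Old replicate 9 was the low array for Mars2 (3.29, nearest 3.88) and Iars2 (8.49, nearest 8.75). Without old replicate 8 the median differences were −0.22 for the large and −0.20 for the small subunit. In that fit 18 genes were called lower, against 6.19% of all genes.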

How the results depend on the processing

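No paired analysis was possible because the groups share 0 replicate numbers. Counts are for large and small subunit genes called lower. With the array sets as a block 46 genes were called (30 and 16), against 16.7% of all genes. The count was 0 (0 and 0) with the atrial index, without the 7 old arrays with Myl7 above 10, with index and sets together, and without those arrays within their array sets (3 old against 4 young); the last 2 settings were chosen after seeing the data, and their medians were −0.12 and −0.08, and −0.10 and −0.05, against −0.28 and −0.25 as reported. At an unadjusted p under 0.05, limma gave 19, 11, 18 and 9 genes lower in these 4 settings. Array weights gave 16 (9 and 7), against 7.96% of all genes called lower. Quantile normalization, median centring, the absence of a filter, a filter at 6 and the mean of passing probe sets gave 20 to 26. Of all genes 5.66% were lower with median centring, 11.4% after quantile normalization and 16.7% without a filter, where the count was 24. With the filter at 6 and with the mean of passing probe sets 8.85% and 7.17% were lower. Fits that left out 1 array gave 17 to 29 (10 to 19 and 7 to 11), against 5.8% to 8.38% of all genes. Their medians were −0.32 to −0.22 and −0.29 to −0.19. No call reversed in any setting; the cause of the changed counts was not tested.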

Other observations

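Probe sets of the same gene can disagree. Of 29 genes with 2 or more passing probe sets, 26 had all estimates below 0, though not of like size: in Mrpl1 they were −0.53 and −0.09, in Mrpl52 −0.41, −0.001 and −0.04, and in Mrps9 −0.49, −0.50 and −0.14. In Mrpl47 the probe set used was at −0.10 and another, above 4 in 17 arrays, at 0.44. In Mrpl51 the 3 probe sets were at −0.21, −0.16 and 0.08, the last with an SD of 0.95 among old arrays.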
